A study of Rattus norvegicus with 241 samples.

Results

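The genes described here encode the main proteins of rat milk. They are the 4 casein genes CSN1S1, CSN1S2A, CSN2 and CSN3, the whey acidic protein gene WAP, the α-lactalbumin gene LALBA, and GLYCAM1, whose mucin-like product is secreted into milk. They were chosen by their symbols, with earlier results of these data known, and are 7 of the 16820 genes in the bulk tables. Their levels were followed by cell lineage, strain, day, parity and treatment in all 241 samples, of which 202 were bulk RNA-seq libraries and 39 were single-cell libraries.

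Caseins carry amino acids and calcium into milk, κ-casein (CSN3) keeps the casein micelles in suspension, and α-lactalbumin is the regulatory subunit of lactose synthase. In the mammary gland these genes are switched on in luminal secretory (alveolar) cells, mainly by prolactin acting through its receptor PRLR, the kinase JAK2 and the factor STAT5, together with glucocorticoids and ELF5. They are known for low expression in virgin glands and very high expression in lactation. GLYCAM1 is also known as an L-selectin ligand of the high endothelial venules of lymph nodes.

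All rats were female and none was described as lactating. TGFBRi was LY2157299 (galunisertib), which blocks the kinase of the type I TGFβ receptor. It was given by gavage at 75 mg/kg 2 times daily, and the controls received the vehicle on the same schedule. Young ACI rats started dosing at 35 days of age, received it for 10 days and were collected 0, 7 or 14 days after the last dose, with 3 rats per treatment and day. Young outbred SD rats started at 24 days of age, received it for 10 days and were collected on day 0, with 4 rats per treatment. The labels call TGFBRi replicates 1 and 2 of these SD rats weak and replicates 3 and 4 strong responders, on a measure not stated there, and the 4 were kept as 1 group. Adult ACI rats of 18 to 24 weeks, virgin or parous, were dosed for 10 days and collected on day 0, with 4 rats per group (CD45 libraries came from only 2 parous vehicle and 3 virgin TGFBRi rats). In the carcinogen experiment SD rats started at 21 days of age, had 10 days of dosing, received 50 mg/kg of N-nitroso-N-methylurea (NMU) and were collected 87 days later. Its groups were vehicle rats with tumors, TGFBRi rats without tumors and TGFBRi rats with tumors, 3 of each, so that every vehicle rat bore a tumor. In the estradiol experiment ACI rats started at 38 days of age, had 21 days of dosing and then carried an implant that was empty or held 37 mg of estradiol (E2). All vehicle rats with E2 bore tumors (4 rats), TGFBRi rats with E2 were tumor-free (4 rats) or tumor-bearing (2 rats), and the rats without E2 (4 vehicle, 3 TGFBRi) had none.

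CD24+CD29high basal, CD24+CD29low luminal and CD45+ leukocyte fractions were sorted from the glands, and EPCAM+ and CD45+ cells from the NMU tumors. The deposited bulk values were read counts divided by a size factor per library. Whole reads were recovered from them, and levels are given here as RPM, that is reads per 1000000 reads on genes, at a depth of 4194912 to 52314784 such reads per library. The single-cell data held 160052 cells after filtering, with 563 to 16424 cells and a median of 2820 to 15941 UMIs (unique transcripts) per cell in each library. Both epithelial sorts were available in 5 groups: young ACI, young SD, NMU, adult virgin ACI and adult parous ACI rats. In each group, all 9 basal markers on a fixed list were lower in vehicle luminal than in vehicle basal libraries. The luminal markers KRT8, KRT18, KRT19, CLDN3, CLDN4, CLDN7, ELF3, EHF and EPCAM were higher in 9 of 9 cases except in young SD rats, where 8 of 9 were. A single young ACI vehicle rat of day 7 (replicate 3) carries both treatments in its labels, so day 7 comparisons were repeated without it. Leaving it out gave 0 milk genes past the threshold for TGFBRi at day 7, as in the full comparison.

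The promoters are shown because the genes moved together in several comparisons below while responding unequally. Each sequence is the 250 bases before the transcription start in RefSeq's GRCr8 table (not the rn6 build to which the reads were aligned), 5′ to 3′ on the gene's strand. Capitals mark TTCNNNGAA, the palindromic letters bound by STAT factors, which read the same on both strands.
CSN1S1 (chr14:20638850-20639099, minus strand): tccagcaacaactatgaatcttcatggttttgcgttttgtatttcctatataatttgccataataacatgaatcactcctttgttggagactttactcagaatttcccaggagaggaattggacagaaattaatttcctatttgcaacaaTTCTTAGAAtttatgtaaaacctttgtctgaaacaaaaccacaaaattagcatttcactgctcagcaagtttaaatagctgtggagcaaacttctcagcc
CSN1S2A (chr14:20574472-20574721, minus strand): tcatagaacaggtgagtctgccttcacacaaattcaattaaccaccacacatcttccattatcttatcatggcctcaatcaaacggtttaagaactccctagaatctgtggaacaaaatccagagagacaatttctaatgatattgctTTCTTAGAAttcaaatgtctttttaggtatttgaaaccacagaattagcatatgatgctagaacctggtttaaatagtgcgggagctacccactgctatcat
CSN2 (chr14:20601574-20601823, plus strand): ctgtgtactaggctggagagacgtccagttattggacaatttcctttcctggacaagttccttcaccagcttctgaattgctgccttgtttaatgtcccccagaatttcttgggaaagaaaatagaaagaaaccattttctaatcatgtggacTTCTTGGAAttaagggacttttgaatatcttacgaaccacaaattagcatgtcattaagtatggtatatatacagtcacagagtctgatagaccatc
GLYCAM1 (chr7:136561300-136561549, minus strand): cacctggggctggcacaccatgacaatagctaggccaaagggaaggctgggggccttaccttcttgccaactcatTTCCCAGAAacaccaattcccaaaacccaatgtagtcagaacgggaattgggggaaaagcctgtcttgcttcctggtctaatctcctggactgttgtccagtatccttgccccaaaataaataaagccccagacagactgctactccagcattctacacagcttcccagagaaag
CSN3 (chr14:20439831-20440080, minus strand): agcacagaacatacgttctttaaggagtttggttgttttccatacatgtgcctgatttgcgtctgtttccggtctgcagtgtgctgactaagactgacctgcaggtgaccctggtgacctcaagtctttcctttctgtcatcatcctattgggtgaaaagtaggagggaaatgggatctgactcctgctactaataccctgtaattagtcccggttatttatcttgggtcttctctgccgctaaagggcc
WAP (chr14:85719160-85719409, minus strand): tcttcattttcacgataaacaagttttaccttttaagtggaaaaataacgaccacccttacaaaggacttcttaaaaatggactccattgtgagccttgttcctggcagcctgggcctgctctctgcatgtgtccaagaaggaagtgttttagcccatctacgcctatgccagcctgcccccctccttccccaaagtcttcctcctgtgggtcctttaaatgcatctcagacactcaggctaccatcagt
LALBA (chr7:131507073-131507322, minus strand): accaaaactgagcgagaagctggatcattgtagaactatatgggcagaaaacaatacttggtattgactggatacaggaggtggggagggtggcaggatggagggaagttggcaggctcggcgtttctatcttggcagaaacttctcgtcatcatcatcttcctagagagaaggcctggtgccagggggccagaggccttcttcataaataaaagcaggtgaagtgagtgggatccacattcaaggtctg

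The motif starts 100 bases before the start site in CSN1S1, 2 bases farther from it in CSN1S2A, and 97 bases before it in CSN2 and 175 in GLYCAM1. CSN1S1 and CSN1S2A hold the same letters, TTCTTAGAA, while CSN2 has TTCTTGGAA and GLYCAM1 has TTCCCAGAA. These letters were not found in this window of CSN3, WAP or LALBA. They occur in 2566 of all 33469 promoters of that length, or 7.67%. The 4 casein genes lie within one stretch of chromosome 14, with CSN2 on the opposite strand to the other three. A match is a description of letters and not evidence of binding.

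In vehicle rats all 7 milk genes were higher in luminal than in basal libraries, in each of 5 groups. In young ACI rats, over the 3 days averaged, the log2 difference was 5.66 ± 0.42 for CSN1S1 (SE; adjusted p = 5.92e-12, limma on log2 of the value plus 1, adjusted over all genes) and 6.21 ± 0.99 for CSN2. GLYCAM1 had the smallest difference there, 3.81 ± 1.24 (adjusted p = 0.016 by limma). Luminal over basal log2 differences ran from 4.93 to 6.44 in young SD rats, 4.12 to 6.24 in NMU rats, 4.29 to 6.28 in adult virgin and 6.23 to 7.71 in adult parous ACI rats. Of all genes tested, limma called 34.1% in young ACI, 50.1% in young SD, 21.9% in NMU, 34.9% in adult virgin and 42.1% in adult parous rats, in either direction. With the rat as a replicate block, the paired fit called 7 in each of the 5 groups. DESeq2 called 5 of the 7 in young SD rats, edgeR called 4 in NMU rats, and leaving out 1 NMU rat gave 4 to 6. In a bulk library fewer cells of a type and less RNA per cell cannot be told apart.

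The genes that work with them were read from fixed lists, beside the shares of all genes given above. Of the 15 fixed genes for other milk and fat-globule proteins, 13 of 15 tested were higher in luminal libraries of young ACI rats, 13 of 14 in SD, 9 of 15 in NMU and 12 of 13 in each adult group, and none was lower. Of the lactogenic signalling genes, 10 of 15 were higher and 4 lower in luminal libraries of young ACI rats. The prolactin receptor gene PRLR differed by 4.86 on the log2 scale, ELF5 by 5.05, the estrogen receptor gene ESR1 by 4.36 and the progesterone receptor gene PGR by 2.57. In the SD, NMU, virgin and parous groups 6, 3, 6 and 7 of 15 signalling genes were higher and 2, 3, 1 and 3 lower. In SD rats 8 of the 15 were thus called in either direction, near the 50.1% of all genes, and in virgin rats 7 of 15, beside 34.9%.

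Milk transcripts took a large part of the luminal libraries. The 7 genes together held 1.77 to 2.16% of gene reads in vehicle rats of young ACI day 0, with a median of 1.95%. Their medians in vehicle rats were 2.20% at day 7, 5.07% at day 14, 2.17% in young SD, 3.81% in adult virgin, 3.63% in adult parous, 2.09% in NMU and 3.02% in ACI rats without E2. These ranges overlapped between neighbouring groups in that order. The E2 groups stood above all of them: the 4 vehicle rats held 15.2 to 18.6%, the 4 tumor-free TGFBRi rats 11.7 to 24.0% and the 2 tumor-bearing TGFBRi rats 13.3 and 21.9%. The highest of the 58 rats without E2 held 9.87%, so the 10 rats with E2 did not overlap with the rest. Data sets were normalized apart, so this order is a description.

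The genes differed in how much they varied between rats of one group. Over 68 luminal libraries in 20 groups, the SD of the log2 level within a group was 0.69 for CSN1S1, 0.79 for CSN3 and 0.94 for LALBA. It was 1.26 for WAP, 1.51 for CSN1S2A, 1.97 for CSN2 and 2.02 for GLYCAM1. CSN1S1, CSN3 and LALBA were expressed in every rat, at no less than 409, 1671 and 581 RPM, while GLYCAM1 ran from 0.20 to 29836 and CSN2 from 13.4 to 156180. Within one group, the highest rat stood up to 2062-fold above the lowest for CSN2 and up to 3943-fold for GLYCAM1, against 9.07-fold for CSN1S1.

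**Figure D1:**
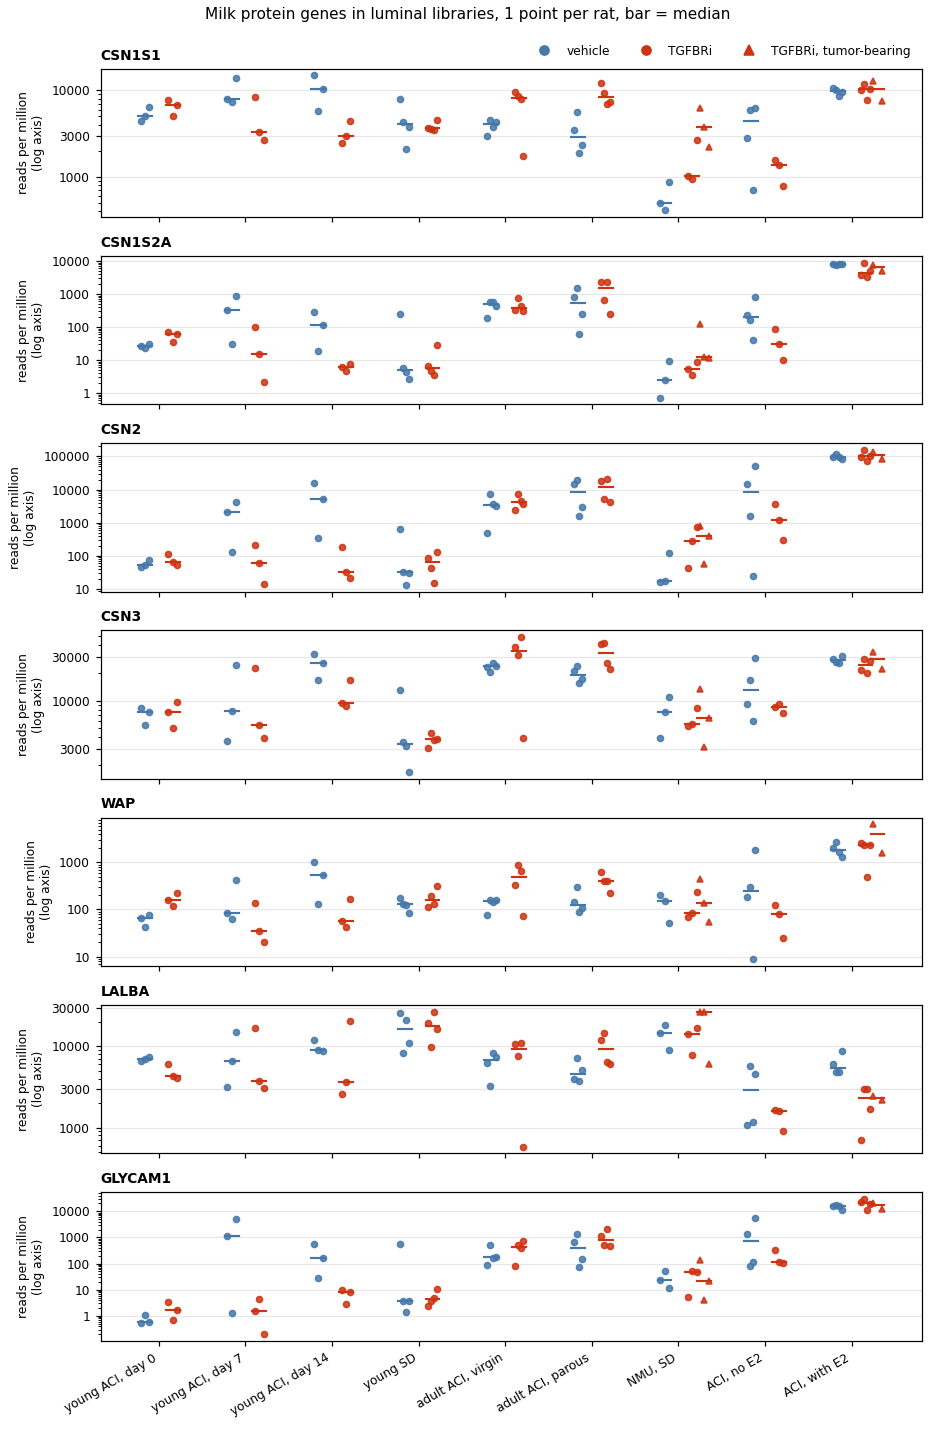
Level of each milk gene in luminal libraries, in RPM on a log axis, with 1 point per rat and a bar at the group median; blue is vehicle, red is TGFBRi and triangles are TGFBRi rats with tumors. CSN1S1, CSN3 and LALBA stay within a narrow band in most groups, whereas CSN2, CSN1S2A and GLYCAM1 span several powers of 10 and are highest in the 10 rats with E2.

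Genes whose luminal levels moved most like the caseins were found from 68 rats, after centring each rat on its group. Among 7883 genes, WAP had the highest Pearson correlation with the mean of the 4 casein genes (r = 0.81), followed by the glutathione transferase gene GSTA1 (0.77), GLYCAM1 (0.75), the carbonic anhydrase gene CAR2 (0.74) and the lipogenic regulator THRSP (0.73). LALBA ranked 40 with r = 0.54. The caseins were not scaled to equal spread, so their mean leans on those that vary most. The r of each casein with this mean, itself included, was 0.94 for CSN1S2A, 0.90 for CSN2, 0.85 for CSN1S1 and 0.78 for CSN3. Markers of the luminal classes were mixed. Of 5 luminal progenitor markers ranked, 3 had a positive and 2 a negative correlation, from -0.34 for ALDH1A3 to 0.60 for CD14. Of 5 mature luminal markers 1 was positive and 4 negative, from -0.62 for PGR and -0.50 for FOXA1 to 0.14 for CITED1. The part of the cell mix in these correlations was not tested. Groups of one data set share normalization, and no p-value is attached to this ranking.

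In young ACI vehicle rats β-casein (CSN2) was lowest on day 0. Its luminal level was 45.8, 51.8 and 73.1 RPM on day 0, 2131, 135 and 4172 on day 7 and 15623, 352 and 5157 on day 14. GLYCAM1 was at 0.548, 1.09 and 0.582 on day 0, 1155, 1.24 and 4901 on day 7, and 577, 28.4 and 170 on day 14. For both genes every day 7 and day 14 rat was above every day 0 rat. For GLYCAM1 at day 7 this rests on 1.24 against 1.09 RPM, a gap at the floor of detection. Single rats within day 7 or day 14 differed by over an order of magnitude. The log2 difference of day 14 from day 0 was 5.81 ± 1.41 for CSN2 (adjusted p = 0.111 by limma) and 7.55 ± 2.17 for GLYCAM1 (adjusted p = 0.197 by limma). At day 7 it was 4.39 ± 1.41 for CSN2 and 8.13 ± 2.17 for GLYCAM1 (adjusted p = 0.0955 by limma). Day 7 replicate 3, the rat with both treatments in its labels, had the highest CSN2 and GLYCAM1 of that day, and without it the differences were 3.04 ± 1.41 for CSN2 (adjusted p = 0.445 by limma) and 5.43 ± 1.94 for GLYCAM1 (adjusted p = 0.318 by limma). None of the 7 genes passed at day 7 or day 14, where 0.685% and 0.389% of all genes did. At an unadjusted p under 0.05 there were 3 at day 7 and 4 at day 14; edgeR called 1 and 0, and DESeq2 3 and 3. The more even genes moved less: CSN1S1 held 4413, 5038 and 6499 on day 0 and 14922, 5829 and 10379 on day 14, and LALBA 6603, 7001 and 7436 against 11991, 8944 and 8682. Age and time after the last gavage cannot be told apart in this comparison.

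The corresponding TGFBRi rats had CSN2 at 114, 64.4 and 53.2 RPM on day 0, 214, 62.6 and 14.3 on day 7 and 186, 32.3 and 22.1 on day 14. All 3 treated rats of day 14 lay below all 3 vehicle rats, while the day 0 and day 7 ranges overlapped. The log2 difference of TGFBRi from vehicle for CSN2 was 0.34 ± 1.41 at day 0, -4.35 ± 1.41 at day 7 (adjusted p = 0.39 by limma; -2.99 ± 1.41 without vehicle replicate 3) and -5.62 ± 1.41 at day 14 (adjusted p = 0.233 by limma). CSN1S2A, coding an α-S2 casein, was at 279, 18.7 and 114 in vehicle and 6.02, 4.54 and 7.72 in TGFBRi rats on day 14, again without overlap. WAP was at 1015, 130 and 530 against 56.01, 41.8 and 169, where the groups overlapped. CSN3 overlapped too, at 32542, 16646 and 25703 against 9385, 8679 and 16797.

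None of these differences passed the threshold. The share of all genes called was 1.01% at day 0, 0.0% at day 7 and 0.0% at day 14, so at the later days no gene of the table passed. At day 0, 0 of the 7 genes were at an unadjusted p under 0.05, and edgeR and DESeq2 called 0, while a fit of only the 2 groups compared called 3. At day 7 there were 4 at that level, with 0 called by edgeR and 3 by DESeq2, and at day 14 there were 4, with 0 and 2 called. Whether the effect differed between days was tested directly: the day 14 effect on CSN2 minus the day 0 effect was -5.96 ± 2.00 (adjusted p = 0.504 by limma). Over this and the parity and E2 differences, 0 of 28 tests of milk genes in luminal libraries passed, against 0.00172% of all tests; 6 had an unadjusted p under 0.05, edgeR called 0 and DESeq2 called 2. A gene of the wider milk list passed at day 0: LPO, coding lactoperoxidase, was 4.07 ± 0.85 higher with TGFBRi on the log2 scale (adjusted p = 0.039 by limma).

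Young SD rats showed the same narrow and wide genes with no separation by treatment. CSN1S1 was at 7931, 4361, 2100 and 3780 RPM in vehicle and 3698, 3607, 3522 and 4571 in TGFBRi rats. CSN2 was at 652, 32.96, 13.4 and 31.5 in vehicle and 84.8, 42.8, 15.1 and 131 in TGFBRi rats. Vehicle replicate 1 had the highest CSN1S1, CSN1S2A, CSN2, CSN3 and GLYCAM1 of all 8. LALBA was at 26030, 8204, 21286 and 10968 against 19324, 9880, 26300 and 16109, with full overlap. The largest log2 difference among the 7 genes was -1.25 ± 1.45, for GLYCAM1, and 0 passed, with 0.0% of all genes called, 0 at an unadjusted p under 0.05 and 0 called by edgeR or DESeq2.

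Parity was compared in adult ACI rats. In vehicle rats CSN2 was at 505, 7117, 3705 and 3136 RPM in virgin and 14350, 18835, 1615 and 2894 in parous glands. The ranges overlapped, and the log2 difference of parous from virgin was 1.29 ± 0.80 (adjusted p = 0.642 by limma). CSN3 was at 23022, 20462, 25893 and 24038 in virgin and 21276, 23983, 15600 and 17035 in parous vehicle rats, a log2 difference of -0.22 ± 0.66. With TGFBRi the difference was 1.36 ± 0.80 for CSN2 and 1.53 ± 0.79 for GLYCAM1. In both treatments 0 of 7 milk genes passed, beside 0.0% of all genes in vehicle and 0.0% in TGFBRi rats, with 0 at an unadjusted p under 0.05.

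Among parous adults CSN1S1 differed most with TGFBRi. Its levels were 3456, 5560, 1883 and 2338 RPM in parous vehicle and 12349, 9353, 6889 and 7407 in parous TGFBRi rats, with no overlap. The log2 difference was 1.55 ± 0.53 (adjusted p = 0.27 by limma), so it did not pass. WAP was at 146, 295, 86.4 and 106.7 in parous vehicle against 641, 402, 409 and 223 in parous TGFBRi rats, a log2 difference of 1.49 ± 0.67. In virgin rats CSN1S1 was at 2951, 4543, 3765 and 4325 in vehicle and 9495, 8519, 7957 and 1739 in TGFBRi rats. The fourth TGFBRi rat was also the lowest of its group for CSN3 (3911) and LALBA (581), while its GLYCAM1 (728) was the highest. None of the 7 genes passed in virgin rats, with 0.0% of all genes called and 0 at an unadjusted p under 0.05, or in parous rats, with 0.0281% called and 2 at that level. Neither edgeR nor DESeq2 called any, 0 in each.

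In the NMU experiment CSN1S1 came nearest to the threshold. It was at 495, 409 and 881 RPM in vehicle rats with tumors, 1028, 949 and 2648 in tumor-free TGFBRi rats and 6338, 3805 and 2221 in tumor-bearing TGFBRi rats. Both TGFBRi groups lay above the vehicle group without overlap. The log2 difference from vehicle was 0.91 ± 0.53 in tumor-free rats (adjusted p = 0.353 by limma) and 2.14 ± 0.53 in tumor-bearing rats (adjusted p = 0.0677 by limma). LALBA overlapped between all 3 groups, at 14398, 18213 and 8879 in vehicle, 14177, 7786 and 16657 in tumor-free and 26416, 26663 and 6129 in tumor-bearing rats. CSN3 was at 3935, 7548 and 10978, at 5267, 5552 and 8389, and at 13329, 3151 and 6520 in the same order of groups, with full overlap. By limma 0 of 7 passed in each comparison, where 0.948% and 0.212% of all genes did. In tumor-free rats 0 had an unadjusted p under 0.05 and 0 were called by edgeR or DESeq2; in tumor-bearing rats 2 did, and each tool called 1.

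The highest luminal levels of CSN1S2A, CSN2, GLYCAM1 and WAP were in rats with estradiol. CSN2 was at 98263, 116253, 97390 and 82453 RPM in vehicle rats with E2, against 14815, 1566, 24.3 and 50059 without it. In TGFBRi rats it was at 96941, 156180, 71765 and 101763 in tumor-free rats with E2 and 3728, 1172 and 297 without it. Every rat with E2 was above every rat without it. In TGFBRi rats the gap was wide, while in vehicle rats 1 rat without E2, replicate 4, reached 50059 RPM of CSN2. That rat also had the highest CSN1S2A (840), CSN3 (29377), GLYCAM1 (5698) and WAP (1811) of the rats without E2.

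GLYCAM1 rose to 16464, 18055, 16369 and 11096 RPM in vehicle rats with E2, against 1389, 84.1, 119 and 5698 without it. In tumor-free TGFBRi rats it was at 22221, 29836, 10996 and 19305, against 318, 115 and 105.04. CSN1S2A was at 8306, 7785, 8280 and 8334 in vehicle rats with E2, within a narrow band, against 232, 165, 39.4 and 840. The tumor-free TGFBRi rats with E2 had CSN1S2A at 3852, 8955, 3302 and 5058, against 86.2, 30.7 and 10.2. For CSN1S2A and GLYCAM1 the groups with and without E2 did not overlap in either treatment.

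In TGFBRi rats 6 of the 7 genes rose with E2. The log2 differences were 7.42 ± 0.76 for CSN1S2A (adjusted p = 5.25e-05 by limma), 7.02 ± 1.06 for GLYCAM1 (0.00176), 6.62 ± 1.74 for CSN2 (0.0428) and 4.75 ± 1.27 for WAP (0.0461). CSN1S1 rose by 3.14 ± 0.55 (adjusted p = 0.00358) and CSN3 by 1.59 ± 0.41 (adjusted p = 0.0354). LALBA did not pass, at 0.48 ± 0.60. This compares with 4.58% of all genes called in either direction. edgeR called 4 and DESeq2 6, and leaving out 1 rat gave 3 to 6, with 3 without any one of E2 replicates 1, 2 and 4 or of the 3 rats without E2.

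In vehicle rats 2 of the 7 rose with E2: CSN1S2A by 5.54 ± 0.70 (adjusted p = 0.0012 by limma) and GLYCAM1 by 4.94 ± 0.98 (adjusted p = 0.0196 by limma). CSN2 differed by 5.51 ± 1.61 (adjusted p = 0.106) and CSN1S1 by 1.82 (adjusted p = 0.085). Here 1.48% of all genes were called, 7 of the 7 milk genes had an unadjusted p under 0.05, edgeR called 1 and DESeq2 3. Without replicate 4 of the rats without E2, the rat with high caseins, 6 passed, and without E2 replicate 2 or replicate 3 without E2, 1 did. The difference of the E2 effect between treatments was tested and did not pass for any of the 7 genes (CSN2 1.12 ± 2.37). E2 and tumors cannot be told apart in the vehicle rats, all of which bore tumors with E2 and none without.

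LALBA, the subunit of lactose synthase, was not called with E2 in either treatment. It was at 6007, 4878, 4845 and 8841 RPM in vehicle rats with E2 and 1087, 5719, 1166 and 4565 without it, a log2 difference of 1.41 ± 0.56 (adjusted p = 0.237 by limma), with an unadjusted p under 0.05 as for the other 6 genes. In TGFBRi rats with E2 it was at 700, 2948, 2942 and 1673 in tumor-free and 2411 and 2174 in tumor-bearing rats. The E2 rats of both TGFBRi groups lay below all vehicle rats with E2. The log2 difference of TGFBRi from vehicle under E2 was -1.86 ± 0.56 in tumor-free rats (adjusted p = 0.41 by limma) and -1.50 ± 0.68 in tumor-bearing rats (adjusted p = 0.763 by limma). Among rats with E2 0 of 7 passed in either comparison, where 0.0147% (tumor-free) and 0.00736% (tumor-bearing) of all genes did, with 1 and 1 at an unadjusted p under 0.05 and 0 called by edgeR or DESeq2. Without E2 0 passed as well, beside 0.0147% of all genes, with 2 at an unadjusted p under 0.05. These were CSN1S2A at -2.74 ± 0.76 and CSN1S1 at -1.39 ± 0.55, lower with TGFBRi, and edgeR and DESeq2 called 0.

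Other milk genes were called with E2 as well, where 4.58% of all genes were called in TGFBRi and 1.48% in vehicle rats. In TGFBRi rats 7 of 13 tested genes for other milk and fat-globule proteins rose and none fell, with a median log2 difference of 1.48. LPO rose by 7.74, the polymeric immunoglobulin receptor gene PIGR by 4.96, the xanthine oxidoreductase gene XDH by 2.28 and the casein gene CSN1S2B by 2.24. In vehicle rats 3 of 13 other milk proteins and fat globule genes rose: PIGR by 3.68, the folate receptor gene FOLR1 by 1.69 and MFGE8, coding lactadherin, by 1.304. Of 15 lactogenic signalling genes, ELF5 rose by 2.65 in TGFBRi rats, while PRLR fell by 2.52, WNT4 by 2.46 and the cytokine signalling inhibitor SOCS1 by 1.07. In vehicle rats WNT4 fell by 2.78 and PRLR by 1.78, and no lactogenic signalling gene rose.

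Basal sorts held a small share of the luminal level of the same rat. In 18 young ACI rats the basal level of CSN1S1 was 0.79 to 8.85% of the luminal level, with a median of 2.25%, and that of CSN3 was 0.42 to 8.98%, with a median of 1.74%. Medians were 3.05 to 5.27% for the 4 caseins in 8 young SD rats, 6.50 to 12.3% in 9 NMU rats and 0.74 to 2.47% in 16 adult rats. The summed luminal epithelium list held a larger share of its luminal level: its median was 14.0% in young ACI, 15.8% in SD, 16.6% in NMU and 10.5% in adult rats. All 7 milk genes lay below that list in 16 of 16 adult rats, and in young ACI rats CSN1S1, CSN3, WAP and LALBA did in 18 of 18. The CSN2 share lay below it in 17, the CSN1S2A share in 16 and the GLYCAM1 share in 12 of the 18. In NMU rats fewer did: CSN1S1, CSN1S2A and GLYCAM1 in 6 of 9, CSN2 in 7, CSN3 and WAP in 8 and LALBA in 9. In young SD rats GLYCAM1 did in 6 of 8, CSN1S2A in 7 and the other 5 genes in 8.

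Across 51 rats the basal level followed the luminal level unevenly. The Pearson correlation of the log2 levels was 0.87 for CSN2, 0.78 for CSN1S2A, 0.66 for LALBA, 0.64 for GLYCAM1, 0.60 for WAP, 0.34 for CSN1S1 and 0.33 for CSN3, and 0.29 for the luminal epithelium list. The points share their rat, and groups of one data set share normalization, so the values are descriptive. Data sets were pooled without centring on groups, and the genes differ in their range, so r cannot be ranked between genes. How much of the basal signal was RNA from luminal cells was not tested.

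CD45+ libraries held milk transcripts at similar shares. The medians of the 7 genes were 1.61 to 5.78% of the luminal level in 18 young ACI rats, 2.13 to 9.22% in 8 SD rats, 4.76 to 14.2% in 9 NMU rats and 2.64 to 6.16% in 13 adult rats. The luminal epithelium list was at 4.66%, 10.5%, 11.3% and 4.29% in the same order. In the estradiol experiment they were the lowest, 0.40 to 0.61% in 17 rats, beside 0.668% for the list. Over 65 rats, pooled in the same way, the CD45 level of CSN2 followed its luminal level with r = 0.86 and that of CSN3 with r = 0.24. The highest shares came from GLYCAM1 where luminal levels were near 0, up to 8222.5% in a young ACI rat (TGFBRi day 7, replicate 3).

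**Figure D2:**
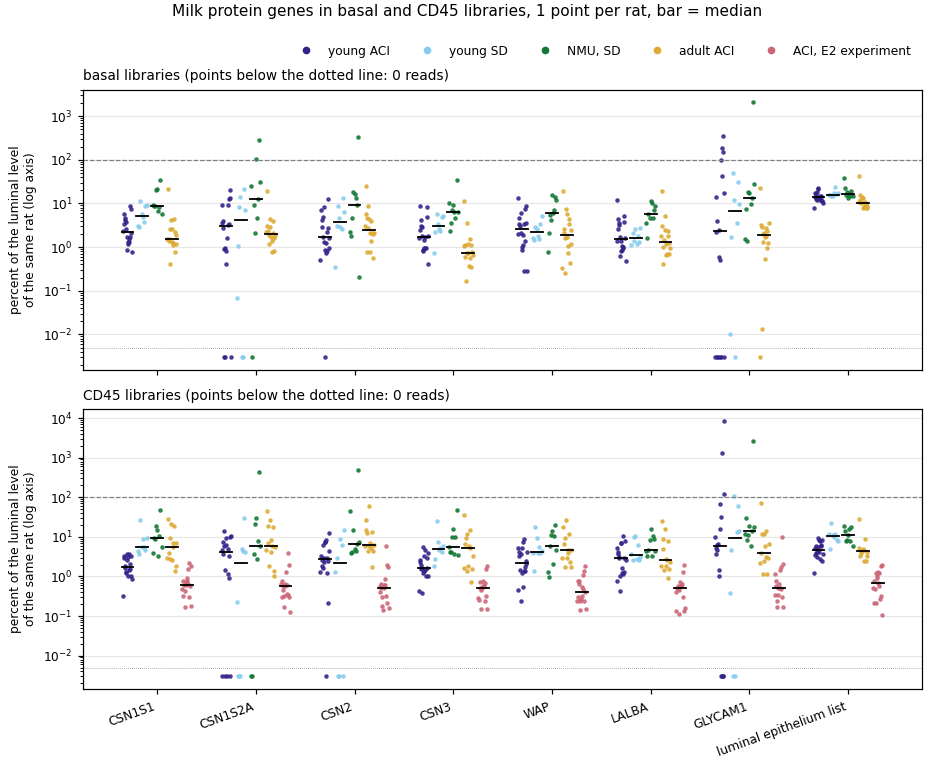
Level of each milk gene and of the summed luminal epithelium list in basal (top) and CD45 (bottom) libraries, as percent of the luminal level of the same rat on a log axis, with 1 point per rat, colors for data sets, black bars at medians and points below the dotted line at 0 reads. Most points lie far below the dashed line at 100 percent, CD45 libraries of the E2 experiment lie lowest, and single points of GLYCAM1, CSN2 and CSN1S2A exceed that line.

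In an NMU rat, TGFBRi tumor-bearing replicate 2, milk genes broke this order. Its CSN2 was at 192 RPM in basal and 294 in CD45 libraries, against 58.7 in the luminal library. Its GLYCAM1 was at 87.5 in basal, 111 in CD45 and 4.22 in luminal cells, and its CSN1S2A at 35.4, 52.8 and 12.4. In this rat these 3 genes were higher outside the luminal sort than in it. In a second NMU rat CSN1S2A was at 3.52 in basal and 3.43 in luminal cells.

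That rat bears on the only basal difference with TGFBRi that passed. Basal CSN1S1 was at 45.8, 36.2 and 77.5 RPM in NMU vehicle rats and 421, 1343 and 126 in TGFBRi rats with tumors, the 1343 being replicate 2. The groups did not overlap, and the log2 difference was 3.16 ± 0.66 (adjusted p = 0.0488 by limma). So 1 of 7 genes was called there, beside 1.31% of all genes. All 7 had an unadjusted p under 0.05, edgeR called 3 and DESeq2 7. The call was lost, with 0 genes, when only the compared groups were fitted and when libraries were scaled without the milk genes. Without TGFBRi replicate 2 CSN1S1 was still called, at 2.33, without any one of the 3 vehicle rats 0 genes were, and without TGFBRi replicate 3 there were 3. The luminal CSN1S1 level of these rats differed in the same direction, as given above. In the other 7 basal comparisons 0 of 49 tests of milk genes passed, beside 1.7% of all tests, with 10 at an unadjusted p under 0.05, 0 called by edgeR and 3 by DESeq2.

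No other contrast in basal libraries passed. Day 7 and day 14 against day 0 in vehicle rats gave 0 of 14, beside 0.115% of all tests, although 8 had an unadjusted p under 0.05 and DESeq2 called 7. CSN2 at day 14 differed most, by 9.16 ± 1.79 (adjusted p = 0.082 by limma). Parity in basal and CD45 libraries gave 0 of 28, beside 3.01% of all tests, with 2 at an unadjusted p under 0.05. All calls over all genes came from basal libraries of TGFBRi rats, where 12.1% of genes and 0 of the 7 milk genes were called, and the other 3 comparisons had 0. The CD45 part compared 2 parous with 4 virgin vehicle rats and 4 parous with 3 virgin TGFBRi rats. Differences between effects gave 0 of 21 in basal libraries, beside 0.315%, with 10 at that level and 5 called by DESeq2. In CD45 libraries they gave 0 of 14, beside 0.0%, with 1 at that level.

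In CD45+ leukocyte libraries 4 of the 7 genes rose with E2 in TGFBRi rats, at a far lower level than in luminal cells. CSN2 was at 624, 806, 360 and 212 RPM in tumor-free TGFBRi rats with E2 against 21.7, 1.70 and 5.92 without it. In vehicle rats it was at 172, 704, 600 and 263 with E2 and 45.1, 13.2, 1.47 and 854 without it. The 854 was in the rat without E2 whose luminal CSN2 was 50059, so that the vehicle groups overlapped. In TGFBRi rats 4 of 7 genes were called, beside 5.58% of all genes: CSN1S2A at 6.37 ± 1.06 (adjusted p = 0.0053 by limma), CSN2 at 6.30 ± 1.46 (0.022), GLYCAM1 at 5.04 ± 1.26 (0.0316) and CSN1S1 at 2.64 ± 0.73 (0.045). edgeR called 1, DESeq2 5, and leaving out 1 rat gave 1 to 3. In vehicle rats 0 were called, beside 0.282% of all genes, with 3 at an unadjusted p under 0.05. CSN1S2A came nearest at 4.32 (adjusted p = 0.0771 by limma), and without the rat at 854 there were 3. These leukocyte levels were a median of 0.40 to 0.61% of the luminal level, and the part of luminal RNA in them was not tested. For TGFBRi, the other 11 CD45 comparisons gave 0 of 77, beside 0.281% of all tests, with 28 at an unadjusted p under 0.05, 0 called by edgeR and 4 by DESeq2. The CD45 library of young ACI TGFBRi replicate 3, day 7 by its description, has day 9 in its title. It was used as day 7, and without it 0 passed as well.

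EPCAM+ cells of NMU tumors held less milk RNA than luminal libraries of NMU glands, which are a different sort. The 7 genes together took 0.10, 0.334 and 0.343% of gene reads in EPCAM+ tumor cells of vehicle rats and 0.105 to 0.237% in those of TGFBRi rats. Their median of 0.225% over 6 tumors lay above the medians of the basal (0.127%) and CD45 (0.165%) libraries of NMU glands and below the 2.09% of the luminal ones. CSN3 was at 712, 2358 and 2483 RPM in vehicle and 618, 1593 and 1354 in TGFBRi tumors, and LALBA at 237, 867 and 713 against 336, 450 and 674. CSN1S1 was at 51.2, 110 and 234 against 94.5, 311 and 104.4. By contrast CSN2 was at 0.45, 0 and 0.28 against 1.04, 2.65 and 2.05, and GLYCAM1 had no read in the vehicle tumors. Both groups overlapped for CSN1S1, CSN3 and LALBA. In EPCAM+ and CD45+ tumor cells 0 of 10 tests passed, beside 0.0% of all tests, with 2 at an unadjusted p under 0.05, 0 called by edgeR and 1 by DESeq2. CSN1S2A, CSN2, GLYCAM1 and WAP were not in the CD45+ tumor table.

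In single cells the milk genes belonged to one luminal class. Cells were clustered without the 7 genes and named from fixed markers, as luminal progenitor-like cells (ELF5, KIT, CD14, ALDH1A3, LCN2, GABRP) and mature luminal-like cells (ESR1, PGR, FOXA1, PROM1, CITED1, AREG). Not every named cluster had all markers of its class higher than other cells. All cells came from day 0. In the sorted ACI data (6 rats) all 7 genes were higher in luminal progenitor-like cells, by 7.41 to 9.50 on the log2 scale, where 67.2% of all genes were called by edgeR's quasi-likelihood test at an adjusted p of 0.1. Log2 differences of the 6 other genes were 5.35 to 7.24 in sorted SD cells (9 rats, 66.3% called) and 6.82 to 8.64 in whole SD glands (9 rats, 57.8% called). GLYCAM1 was the exception, at 2.04 ± 0.99 (adjusted p = 0.106) and 1.44 ± 1.38 (adjusted p = 0.427) by edgeR. With no replicate block 7, 6 and 6 genes were called, as many as in the paired fit. Of the other milk proteins and fat globule genes, 12 of 13, 12 of 14 and 14 of 14 were higher in luminal progenitor-like cells.

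Levels of the genes are listed here within a cell class, and whether each gene was captured equally well was not tested. Over all bulk luminal libraries the order was another, with a median of 13253 RPM for CSN3, 6620 for LALBA and 4790 for CSN1S1. In luminal progenitor-like cells of ACI vehicle rats CSN1S1 was at 139, 137 and 166, LALBA at 97.1, 100.9 and 100 and CSN3 at 66.1, 43.2 and 64.9 per 10000 UMIs. WAP followed at 3.04, 1.66 and 3.26, CSN1S2A at 0.329, 1.02 and 0.548 and CSN2 at 0.130, 0.069 and 1.06. GLYCAM1 was lowest, at 2 UMIs in each of the 3 rats. CSN1S1 and LALBA were in nearly every cell, with a UMI in 94.9 to 98.3% and 97.4 to 99.3% of luminal progenitor-like cells over the 6 ACI rats. CSN2 was in 2.05 to 10.2% of them, and a few cells held most of it: in vehicle rat 3, 2 cells held at least 50% of the 608 CSN2 UMIs.

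In sorted ACI luminal progenitor-like cells 6 of the 7 milk genes were higher with TGFBRi. In bulk luminal libraries of young ACI rats on day 0 limma called 0 of 7, with a median log2 difference of 0.34. The summed milk share there was 1.46 to 2.16% with TGFBRi against 1.77 to 2.16% in vehicle rats. CSN1S1 was at 222, 214 and 305 per 10000 UMIs with TGFBRi against 139, 137 and 166, and CSN3 at 95.4, 107.4 and 126 against 66.1, 43.2 and 64.9. LALBA was at 159, 142 and 166 against 97.1, 100.9 and 100, and WAP at 8.33, 6.89 and 9.93 against 3.04, 1.66 and 3.26. The groups did not overlap for any of these 4 genes, nor for CSN1S2A (3.13, 3.08 and 5.36 against 0.329, 1.02 and 0.548). The log2 differences were 1.11 ± 0.18 for CSN1S1 (adjusted p = 0.000812 by edgeR), 1.28 ± 0.18 for CSN3 (0.000355), 1.00 ± 0.15 for LALBA (0.000478), 2.02 ± 0.25 for WAP (0.00125) and 3.04 ± 0.59 for CSN1S2A (0.032). GLYCAM1 was called as well (adjusted p = 0.067 by edgeR), with 50, 41 and 222 UMIs against 2 in each vehicle rat. CSN2 was not, at 1.26, 0.686 and 1.38 against 0.130, 0.069 and 1.06 (log2 difference 1.65 ± 1.04, adjusted p = 0.356 by edgeR). So 6 of 7 were called, beside 28.3% of all genes, and 5 to 6 without 1 rat.

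For WAP and CSN1S2A these differences were in part in how many cells held a UMI. CSN1S1 and LALBA were in nearly every cell of both groups, as given above. In ACI rats WAP was found in 17.3 to 38.7% of vehicle and 36.8 to 49.3% of TGFBRi luminal progenitor-like cells, and CSN1S2A in 8.2 to 11.3% and 17.3 to 29.9%. With every cell thinned to 1000 UMIs the median shares were 10.96% and 18.5% for WAP, 3.0% and 12.2% for CSN1S2A and 90.9% and 94.7% for CSN1S1. In ACI basal-like cells, which should lack the gene, CSN1S1 was found in 2.6 to 2.8% of vehicle and 9.6 to 11.02% of TGFBRi cells.

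Sorted SD cells gave the same direction with more spread. Bulk luminal libraries of young SD rats had 0 of 7 called and a median log2 difference of -0.21. CSN1S1 was at 43.4, 89.7 and 59.4 per 10000 UMIs in the 3 vehicle rats and 168, 131, 558, 275, 152 and 133 in the 6 TGFBRi rats, without overlap. CSN3 was at 25.4, 30.7 and 48.2 against 105.8, 97.7, 117, 85.7, 78.8 and 80.4, and WAP at 1.02, 2.18 and 1.63 against 5.06, 6.25, 10.2, 11.8, 5.50 and 7.25. LALBA overlapped, at 56.3, 68.8 and 45.4 against 83.3, 78.2, 47.3, 23.05, 90.1 and 97.04. The 2 TGFBRi rats with the lowest LALBA, rats 3 and 4, had the highest CSN1S1 and by far the highest CSN2, 47.2 and 43.7 against at most 1.85 in the other 4. By edgeR 6 of 7 were called, beside 28.7% of all genes. The log2 differences were 2.29 ± 0.51 for CSN1S1 (adjusted p = 0.0273), 1.81 ± 0.27 for CSN3 (0.0112), 2.65 ± 0.35 for WAP (0.00773) and 6.13 ± 1.402 for GLYCAM1 (0.0291). CSN1S2A (adjusted p = 0.0578) and CSN2 (0.096) passed less clearly, and LALBA did not pass (0.73 ± 0.42, adjusted p = 0.222).

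These SD values rest on few vehicle rats and on different clusters. Without vehicle rat 1, 0 genes were called, and without vehicle rat 3, 2 were. Of the luminal progenitor-like cells, cluster 19 held 84.7% in vehicle and 5.45% in TGFBRi rats, while clusters 13, 14, 15 and 16 held 39.3%, 11.8%, 22.6% and 16.8% of TGFBRi cells. Cluster 14 came mostly from TGFBRi rat 3 (82.1%), cluster 15 from rat 4 (93.1%) and cluster 16 from rat 6 (94.9%). These 3 clusters held 0.22%, 0.33% and 0.09% of vehicle cells. Of the 6 class markers, 4, 3 and 4 were higher in them than in other cells, against 5 in cluster 13 and 6 in cluster 19. Within cluster 13 alone CSN1S1 was at 176 in TGFBRi and 126 in vehicle cells per 10000 UMIs, pooled over rats, and within cluster 19 at 65.2 and 58.3. In cluster 17 CSN1S1 was at 150.5 and 40.5. LALBA in cluster 13 was at 86.3 and 78.8, and CSN3 in cluster 19 at 61.4 and 33.1. Within clusters 13, 17 and 19 together, the lowest TGFBRi rat had CSN1S1 at 106.9 and the highest vehicle rat at 89.7. The groups did not overlap for CSN3 (54.5 against 48.1) or GLYCAM1 (0.324 against 0.206) either. CSN1S2A, CSN2, WAP and LALBA overlapped. TGFBRi rat 4 had only 36 cells there, and these values are given without a test.

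In whole SD glands the vehicle rats reached the TGFBRi range. CSN1S1 in luminal progenitor-like cells was at 201, 479 and 109 per 10000 UMIs in vehicle and 96.7, 236, 270, 660, 641 and 244 in TGFBRi rats, a log2 difference of 0.36 ± 0.65 (adjusted p = 0.747 by edgeR). CSN2 was at 6.69, 60.5 and 0.648 against 4.77, 104.97, 56.8, 253, 148 and 78.7, with overlap. GLYCAM1 was at 0.480, 2.23 and 0.111 against 1.23, 79.2, 1.91, 28.2, 19.8 and 72.5, and it was the only one of the 7 genes called (5.09 ± 1.71, adjusted p = 0.064 by edgeR), beside 29.4% of all genes. WAP came next at 2.53 ± 1.04 (adjusted p = 0.119 by edgeR). Leaving out 1 rat gave 0 to 3 genes, 0 without vehicle rat 1 or vehicle rat 3. Of these luminal progenitor-like cells, whole-gland cluster 16 (3902 cells, median of 818 UMIs) held 22.8% in vehicle and 39.7% in TGFBRi rats. Its vehicle cells came mostly from vehicle rat 2 (62.4%). Pooled over rats, CSN1S1 there was at 393 in vehicle and 226 in TGFBRi cells, against 282 and 378 in cluster 14. Whether the TGFBRi effect differs between sorted and whole-gland data, or between single-cell and bulk data, was not tested.

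**Figure D3:**
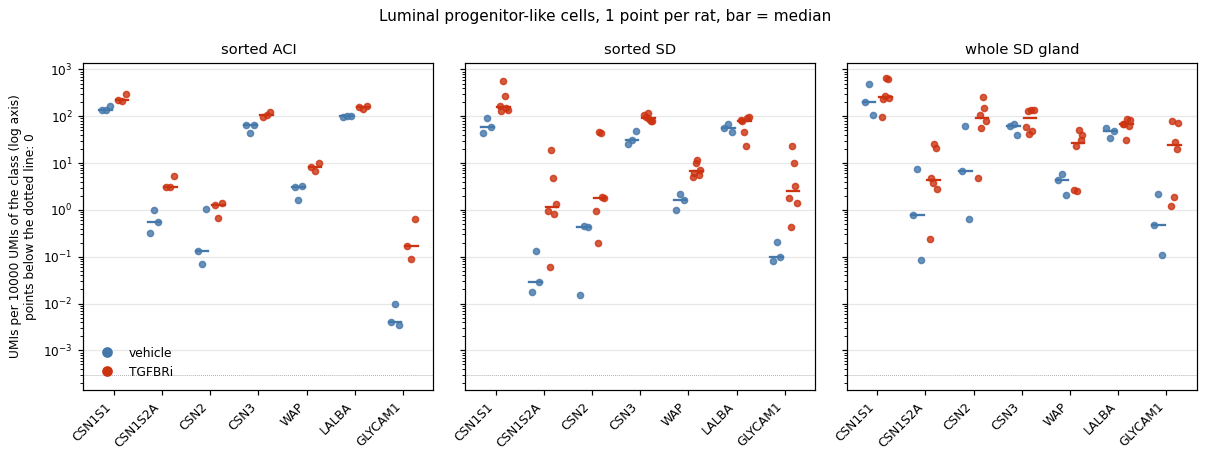
UMIs of each milk gene per 10000 UMIs in luminal progenitor-like cells, on a log axis, with 1 point per rat and a bar at the median, for sorted ACI, sorted SD and whole SD glands; blue is vehicle and red is TGFBRi. In sorted ACI and sorted SD cells the red points lie above the blue ones for CSN1S1, CSN3 and WAP, whereas in whole glands CSN1S1 and CSN3 overlap.

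Fixed lists of other milk genes and of lactogenic signalling genes were read beside these results. In luminal progenitor-like cells with TGFBRi, other milk proteins and fat globule genes were higher in 4 and lower in 1 of 13 in ACI, higher in 5 and lower in 1 of 14 in sorted SD, and higher in 8 and lower in 1 of 14 in whole glands. The median log2 difference of that list was 0.14, 0.65 and 0.92, against -0.05, 0.04 and 0.08 over all genes. FOLR1 (1.13), MFGE8 (0.71), OLAH (0.66, a thioesterase of fatty acid synthesis) and CSN1S2B (0.63) rose in ACI, LPO (2.84) and the milk lipase gene CEL (1.28) led in sorted SD and XDH (2.17) and PIGR (1.60) in whole glands. Among lactogenic signalling genes, 1 rose and 5 fell of 13 in ACI: CISH, a STAT5 target, rose by 0.73, while STAT5B fell by 0.63, JAK2 by 0.45, CEBPB by 0.43 and PRLR by 0.42. Of all genes, 28.3% were called in ACI, 28.7% in sorted SD and 29.4% in whole glands. In sorted SD 1 signalling gene rose and 2 fell of 14, a smaller share than over all genes, with JAK2 falling by 0.82 and STAT5B by 0.61. In whole glands 5 rose and 1 fell of 14: the RANK receptor gene TNFRSF11A rose by 2.29, STAT5A by 1.73, STAT5B by 1.22 and ELF5 by 1.18, and SOCS1 fell by 0.82. The lists were chosen with results of these data known, so the counts describe and do not test them.

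Mature luminal-like and basal-like cells carried the same transcripts at far lower levels. In ACI rats CSN1S1 was at 0.69 to 2.40 per 10000 UMIs in mature luminal-like and 0.030 to 0.35 in basal-like cells. In mature luminal-like cells 5 of 6 genes tested were called higher with TGFBRi in ACI (26% of all genes called), 3 of 7 in sorted SD (30.1%) and 0 of 7 in whole glands (28.6%), where 0 had an unadjusted p under 0.05. DESeq2 called 4, 6 and 1. CSN1S1 differed by 1.17 in ACI and 2.53 in sorted SD mature luminal-like cells. In luminal progenitor-like cells of the same libraries it differed by 1.11 and 2.29. In sorted SD cells, mature luminal-like first, CSN3 differed by 2.22 and 1.81, WAP by 3.12 and 2.65 and LALBA by 1.15 and 0.73. CSN2 differed by 10.55 and 6.11, CSN1S2A by 10.3 and 6.78 and GLYCAM1 by 11.7 and 6.13. None of these last was called in mature luminal-like cells. In basal-like cells 2 of 4 tested were called in ACI (35.2%), 1 of 7 in sorted SD (29.5%) and 1 of 7 in whole glands (45.2%). The first was CSN1S1 at 2.23 (adjusted p = 0.042 by edgeR) with CSN3 at 1.41 (adjusted p = 0.099), the second CSN1S1 at 2.31 (adjusted p = 0.0504). Without TGFBRi rat 1 the ACI mature luminal-like count was 2. The part of free RNA from luminal progenitor-like cells in these values was not tested.

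The last of these calls rested on 1 animal. In whole-gland basal-like cells GLYCAM1 was lower with TGFBRi (-4.20 ± 1.34, adjusted p = 0.041 by edgeR). Vehicle rat 1 held it at 6.13 per 10000 UMIs, with 2 cells holding at least 50% of 9802 UMIs, and the other 8 rats at 0.02 to 0.29. Without that rat 0 genes were called.

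In whole glands CSN1S1 and CSN2 were also found at low levels in classes other than luminal progenitor-like cells, with CSN2 absent in some rats of some classes. The median of CSN1S1 over 9 rats was 1.17 per 10000 UMIs in B cell-like, 0.78 in T cell-like, 0.59 in fibroblast-like, 1.10 in pericyte and vascular muscle-like and 1.11 in vascular endothelium-like cells. These were 0.24 to 0.42% of the level in luminal progenitor-like cells of the same rat, close to the 0.35% in basal-like and 0.56% in mature luminal-like cells. Among the classes named here other than luminal progenitor-like cells, neutrophil-like cells were highest, at 7.20 per 10000 UMIs or 1.86%. CSN2 in the same classes had medians of 0.11 to 0.59% of its luminal progenitor-like level in B cell-like, T cell-like, fibroblast-like and vascular endothelium-like cells. Apart from neutrophil-like and luminal progenitor-like cells, the medians of CSN1S1 in the classes named here lay within a factor of 3 of each other.

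**Figure D4:**
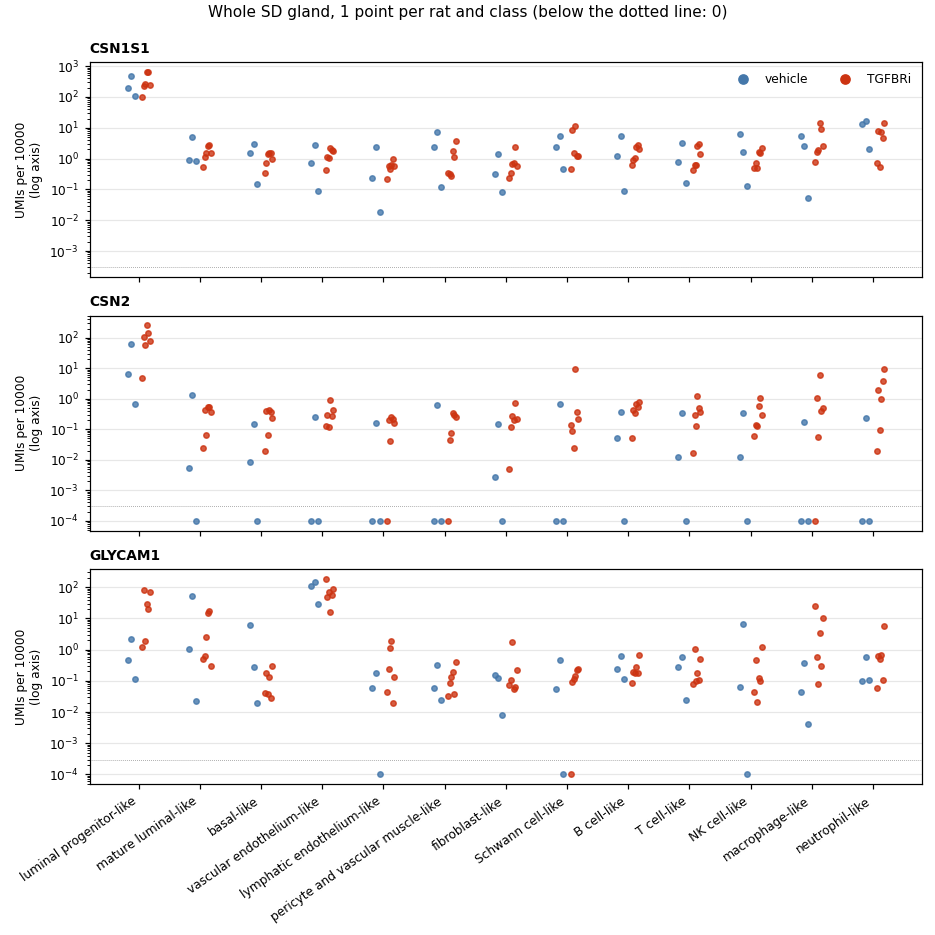
UMIs of CSN1S1, CSN2 and GLYCAM1 per 10000 UMIs in 13 cell classes of whole SD glands, on a log axis, with 1 point per rat and class; blue is vehicle, red is TGFBRi and points below the dotted line are 0. CSN1S1 and CSN2 are highest in luminal progenitor-like cells, whereas GLYCAM1 is higher in vascular endothelium-like than in luminal progenitor-like cells in 7 of 9 rats, all 3 vehicle rats included, and reaches 50.98 in mature luminal-like cells of 1 rat.

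GLYCAM1 departed from this pattern in endothelium. Vascular endothelium-like cells held it at 105.97, 142 and 28.1 per 10000 UMIs in vehicle and 183, 47.1, 67.96, 16.0, 57.9 and 85.1 in TGFBRi rats. All 9 rats had it, and the groups overlapped, with a log2 difference of -0.33 for TGFBRi minus vehicle (p = 0.738, exact permutation test, two-sided, smallest possible p 0.02381). In the same cells CSN1S1 was at 0.088 to 2.67. GLYCAM1 was 97.6% of the milk gene UMIs there (median over rats), whereas CSN1S1 led in luminal progenitor-like cells with 54.04%.

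Most of it came from few cells. When the endothelial cells were clustered again, without the milk genes, 1 subcluster of 374 cells from all 9 rats held 96.2% of the class's GLYCAM1 UMIs. It had 1380 per 10000 UMIs, a UMI in 71.4% of cells, 186 cells with at least 100 UMIs and up to 8186 in a single cell. The subcluster was singled out after its values were seen, so it is described and not tested. Its leading genes were CCL21, the chemokine of lymph node entry, REG3G and the autotaxin gene ENPP2. FUT7 and CHST4, whose enzymes make the sugar of L-selectin ligands, were at 1.59 and 0.24 per 10000 UMIs there, above every other subcluster. The other genes measured on the fixed venule list were not: the adhesion genes SELE (1.10 against up to 8.63), SELP (2.86 against up to 35.7) and MADCAM1 (0.25 against up to 1.33) were higher in other subclusters, and VWF, an endothelial marker outside that list, was at 0.22, the lowest of the 17.

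GLYCAM1 was also high in mature luminal-like cells of single rats. In sorted SD cells TGFBRi rat 3 held it at 169 per 10000 UMIs, with a UMI in 82.8% of 790 cells, 81 of which held at least 50% of the 171938 UMIs. TGFBRi rat 4 followed at 9.40. In whole glands vehicle rat 2 was highest at 50.98, with a UMI in 65.6% of cells, followed by TGFBRi rats 5 and 4 at 17.4 and 14.9. All other rats were at 2.496 or below. The same sorted SD rats, TGFBRi 3 and 4, had the highest GLYCAM1 in luminal progenitor-like cells, at 23.1 and 9.93 per 10000 UMIs. Barcodes shared between libraries belonged to 0.418% of cells in ACI, 1.09% in sorted SD and 12.1% in whole glands, and were not removed.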

How the data were processed

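Bulk libraries were prepared from sorted cells with SMARTer v4, and the authors aligned reads to rn6 with STAR 2.5.1b, counted them without strand by HTSeq on refGene, kept genes with at least 10 counts and normalized with DESeq2 1.30.1. The deposited bulk values are therefore normalized signal, that is counts divided by a size factor per library. They were not raw counts, so limma took the place of the study's DESeq2. In all 202 libraries 100% of values were whole multiples of 1 step (tolerance 0.05), so whole reads were recovered for RPM (reads per 1000000 gene reads) and for count tests. Rows that name no gene held 23.1 to 42.5% of the values where given (adult and E2 tables) and were left out. Basal and luminal libraries of adult rats, deposited in separately scaled tables, were rescaled together. The 4 parts of rat A4-15 were averaged as 1 rat.

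Single-cell counts deposited by the authors (UMIs per gene and cell) came from Cell Ranger 4.0.0 with 3′ chemistry for sorted cells and Cell Ranger 7.0.0 with 5′ chemistry for whole glands, on rn6, and the study used Seurat. Cells with at least 100 genes and under 15% mitochondrial counts were kept, and sorted cells also had to lack Ptprc and hold at least 2 keratin reads. Cells were clustered without the 7 genes (scanpy 1.11.5, Leiden resolution 0.8) and named from fixed markers. Clusters with mixed markers stayed unnamed, but a named cluster did not need every marker of its class to be higher. Doublets were scored with Scrublet. It called 3.56% of cells in 1 whole-gland library but at most 0.082% in the other 8, so it cannot be said to have worked there, and in sorted luminal libraries it called 0 to 18.4%, most in ACI vehicle rat 1, SD TGFBRi rat 3 (15.3%) and SD TGFBRi rat 5 (11.1%). No cell was removed, and the 6% highest scores were left out only in an alternative.

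Bulk comparisons used limma 3.58.1 (trend, robust) on log2 of the value plus 1, for genes whose values summed to 10 or more, at a Benjamini-Hochberg adjusted p of 0.05 over all genes; log2 differences of low genes are understated by the 1 added. Single-cell comparisons used edgeR 4.0.16 (quasi-likelihood, TMM) on UMIs summed per rat and class, with at least 10 cells and 10 counts, at an adjusted p of 0.1. Alternatives were edgeR, DESeq2 1.42.0, 5 added in place of 1, other filters, only the groups compared, scaling without the milk genes, leaving out each rat and the rat as a block. The tests were checked on simulated counts with a single fixed dispersion for all genes. The spread of the milk genes between rats was not simulated, so that check does not cover them. Samples of a group were taken as separate rats by their labels, so p-values measure the spread between rats. In adult ACI rats the same animal names recur under vehicle and TGFBRi, and these were taken as separate rats. Intervals are not given for shares of cells, which carry counting error besides. Basal and luminal libraries of the same rat pair by design: over 24 rats the correlation of their deviations had a lowest value of -0.027, a median of 0.097 and a highest of 0.726. Genes named besides the 7 were the most changed genes past the threshold on fixed lists, at most 4 per list and direction, and the 5 genes most like the caseins. The members and lists were chosen with earlier results of these data known. CSN1S2A, CSN2, GLYCAM1 and WAP were not analysed in CD45+ cells of NMU tumors.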

Additional observations from a re-analysis of the deposited data

Results flagged for a closer look

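Of 77 sets of 4 to 10 rats examined for a rat far from the others, 11 were flagged. Chance flags about 1 in 20 only for normally distributed values in separate sets. The levels were not log-transformed and the sets share rats, so the 11 cannot be set against that rate. In young SD vehicle luminal libraries, replicate 1 stood above the other 3 rats for 4 genes, in RPM: CSN1S2A at 244.6 against 2.73 to 5.68, CSN2 at 652.1 against 13.4 to 32.96, CSN3 at 13178 against 1671 to 3548 and GLYCAM1 at 564.3 against 1.47 to 3.57. In young SD TGFBRi luminal libraries, replicate 4 was above the others for CSN1S1 (4571 against 3522 to 3698) and CSN1S2A (27.7 against 3.43 to 6.70). In ACI luminal libraries without E2, vehicle replicate 4 held WAP at 1811 against 8.68 to 295. With E2, TGFBRi tumor-free replicate 3 was lowest for WAP, at 491.8 against 2330 to 2579, and vehicle replicate 2 was lowest for CSN1S2A, at 7785 against 8280 to 8334. In luminal progenitor-like cells of sorted SD glands, TGFBRi rat 3 was highest for CSN1S1, at 558.5 per 10000 UMIs against 131 to 275, and for CSN1S2A, at 19.4 against 0.062 to 4.86.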

How the results depend on the processing

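Values below are the number of the 7 milk genes called. DESeq2 gave 3 for TGFBRi at day 7 and 2 at day 14 in young ACI luminal libraries, 1 in NMU tumor-bearing luminal libraries, 3 at day 7 and 3 at day 14 against day 0, 2 and 5 for differences between effects in luminal and basal libraries, 3 in the other basal, 7 in the NMU tumor-bearing basal, 7 in the basal day, 4 in the other CD45 and 1 in the tumor comparisons. In single cells it gave 2 in basal-like and 6 in mature luminal-like sorted SD cells, and 2 and 1 in luminal progenitor-like and mature luminal-like cells of whole glands. edgeR gave 1 in NMU tumor-bearing luminal libraries, 1 at day 7 against day 0, 1 for E2 in vehicle luminal libraries, 3 in NMU tumor-bearing basal libraries, 1 for E2 in CD45 libraries of TGFBRi rats and 4 for lineage in NMU rats. With only the groups compared there were 3 for TGFBRi at day 0, 2 at day 14 against day 0, 1 for E2 in vehicle luminal, 3 in the other basal and 0 in NMU tumor-bearing basal libraries. Scaling without the milk genes gave 1 in NMU tumor-bearing luminal and 0 in NMU tumor-bearing basal libraries, and 5 in place of 1 added gave 1 for E2 in CD45 libraries of vehicle rats. In whole glands, clustering at resolution 0.4 gave 0 and leaving out high doublet scores 3 in basal-like cells, and testing without a count filter gave 0 in luminal progenitor-like cells; leaving out high doublet scores gave 2 in basal-like sorted SD cells. The cause of these changes was not tested.

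Leaving out 1 rat gave 0 to 1 for TGFBRi at day 7 (1 without vehicle replicate 2), in NMU tumor-bearing luminal libraries, in luminal differences between effects, at day 14 against day 0, in the other basal, basal day and basal and CD45 parity comparisons and in mature luminal-like cells of whole glands. It gave 0 to 2 at day 7 against day 0, 1 to 6 and 3 to 6 for E2 in vehicle and TGFBRi luminal libraries, 0 to 4 for basal differences between effects, 0 to 3 in NMU tumor-bearing basal libraries, 0 to 3 and 1 to 3 for E2 in vehicle and TGFBRi CD45 libraries, and 6 to 7 and 4 to 6 for lineage in young ACI and NMU rats. In sorted ACI cells it gave 1 to 2, 5 to 6 and 2 to 5 in basal-like, luminal progenitor-like and mature luminal-like cells, in sorted SD cells 0 to 4, 0 to 6 and 3 to 5, and 6 to 7 between the luminal classes, and in whole glands 0 to 2 and 0 to 3 in basal-like and luminal progenitor-like cells. The replicate block changed no count of the lineage comparisons (7 in each), and no fold change of a called gene was reversed over 1386 refits, of which 1274 kept the call and 112 lost it. GLYCAM1 in luminal libraries of young ACI vehicle rats at day 0 rests on 11 to 23 reads. With 3 or 4 rats in most groups, the spread of 1.97 for CSN2 and 2.02 for GLYCAM1 (SD, log2) limits what can pass. How large a difference could pass at this spread was not tested.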
